A study of Mus musculus with 8 samples.

Results

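Ltb, Plac8, Pigr, Rdh12, Map3k15 and Napsa are 6 genes whose transcripts were far more abundant in bone marrow plasma cells labelled as lacking Blimp1 than in wild-type plasma cells. They were picked for that difference from the deposited counts of all 8 libraries, with each knockout set against wild type of its own batch, and for the lack of such a rise in the Xbp1 knockout. Their values in both knockout comparisons are therefore a description and carry no test. They are 6 of the 27179 genes in the count table, and all 6 were among the 15073 genes that passed the filter on low counts.

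RNA was sequenced from plasma cells of C57BL/6 mouse bone marrow, sorted for a Blimp1-GFP reporter and surface CD138. Blimp1KO has the genotype Blimp1-/- and comprises 2 libraries of batch 1, which are set against 2 wild-type (WT) libraries of the same batch, replicates 1 and 2. Xbp1KO has the genotype Xbp1-/- and comprises 2 libraries of batch 2, which are set against WT replicates 3 and 4 of that batch. The sort implies the reporter in cells of every group, WT included, and no treatment is labelled for any of them. The design text calls the replicates biological. The age of the mice, the way each gene was deleted, the deleted exons and any pooling of animals are not given in the sources used here.

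Total counts per library lay between 44012152 and 145411827. Prdm1, which encodes Blimp1, was at 243 and 176 CPM, counts scaled to a common library size, in the Blimp1KO libraries, against 301 and 306 CPM in their WT libraries, a log2 fold change of -0.54 ± 0.25 (SE, n = 2 libraries per group). These counts take in any exons that were not deleted, so they do not check the genotype. Immunoglobulin genes took 55.4% to 58.4% of counts in Blimp1KO and 75.6% to 75.7% in WT of batch 1, and 25.2% to 30.0% in Xbp1KO and 64.8% to 69.7% in WT of batch 2. The J chain gene Jchain is counted among them here. CPM values below are on library sizes scaled by TMM, which adjusts for genes that take a large share of a library. In batch 1 the per-sample expression files matched the count column of the other replicate of their own group, with r from 0.992 to 0.998 over 9937 genes, against 0.510 to 0.746 with the column of their own number. Group membership is the same either way, and replicate numbers here are those of the count table.

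Blimp1 is a zinc finger protein that represses transcription and is required for B cells to become antibody-secreting plasma cells. It is best known in this lineage for silencing genes of the B cell stage, including those for B cell transcription factors and for antigen presentation. XBP1 is a transcription factor of the unfolded protein response that expands the secretory machinery of the same cells. The 6 genes do not form 1 pathway. Ltb encodes the membrane-bound cytokine lymphotoxin beta and Pigr a receptor for polymeric immunoglobulin. Rdh12 encodes an enzyme of retinoid metabolism, Napsa an aspartic protease, Map3k15 a protein kinase, and Plac8 a small cysteine-rich protein.

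The stretches just upstream of the annotated genes are shown because Blimp1 is known to bind DNA near the starts of genes it represses. Of the 6 genes, 4 had an entry in the promoter table of RefSeq (GRCm38.p6). Capitals mark each match to GAAAG, the core letters of the Blimp1 consensus, on either strand, where CTTTC is its reverse complement. In Ltb they also mark a match to the kappa B motif, GGGAC directly followed by TTTCC, which lies there on the reverse strand. Each sequence is 5′ to 3′ on the strand of its gene. Those of Ltb, Pigr and Rdh12 hold the 250 bases before the start, at chr17:35194257-35194506, chr1:130826434-130826683 and chr12:79208663-79208912, all on the plus strand. That of Plac8 holds the 202 bases at chr5:100572254-100572455 on the minus strand, which lie outside the annotated gene.
Ltb: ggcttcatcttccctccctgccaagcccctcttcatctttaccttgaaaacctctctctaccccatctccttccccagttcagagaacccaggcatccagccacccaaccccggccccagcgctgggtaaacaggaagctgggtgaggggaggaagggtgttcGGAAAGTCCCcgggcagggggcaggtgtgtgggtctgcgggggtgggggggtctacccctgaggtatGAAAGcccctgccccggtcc
Pigr: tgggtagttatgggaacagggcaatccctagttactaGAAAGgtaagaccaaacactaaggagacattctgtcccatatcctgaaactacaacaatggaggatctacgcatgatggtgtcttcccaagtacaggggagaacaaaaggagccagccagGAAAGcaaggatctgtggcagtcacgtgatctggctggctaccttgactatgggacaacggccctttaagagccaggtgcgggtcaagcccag
Rdh12: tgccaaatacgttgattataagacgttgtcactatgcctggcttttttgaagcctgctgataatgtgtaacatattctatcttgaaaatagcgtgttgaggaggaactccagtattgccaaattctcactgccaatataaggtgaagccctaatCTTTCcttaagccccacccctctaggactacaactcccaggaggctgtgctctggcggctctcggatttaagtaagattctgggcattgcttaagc
Plac8: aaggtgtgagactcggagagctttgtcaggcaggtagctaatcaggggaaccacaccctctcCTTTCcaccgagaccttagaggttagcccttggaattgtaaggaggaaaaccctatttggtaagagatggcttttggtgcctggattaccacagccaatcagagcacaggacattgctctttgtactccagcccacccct

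The search covered windows of 300 bases, from 250 bases before a start, and counted both strands. GAAAG lay at -86 to -82 and -20 to -16 from the Ltb start, at -213 to -209 and -93 to -89 in Pigr, and at -96 to -92 in Rdh12. In Plac8 it lay at -188 to -184 and at -17 to -13 from its start, where the match at -17 lies inside the annotated gene and is not printed, and at -234 to -230 from a second annotated start. At least 1 match was thus present in each window of these 4 genes, but 57.3% of all 32851 promoter windows of that length hold 1. The longer Blimp1 form AGNGAAAG, held by 8.63% of all windows, was not matched in any of them. The interferon-stimulated response element, searched as GAAA, any 2 bases and GAAA (3.44% of all windows), and the ETS-IRF composite element, searched as GGAA, any 2 bases and GAAA (2.72%), were not matched either. The kappa B motif, held by 0.155% of all windows, was matched once, in Ltb at -87 to -78, where it overlaps a match to GAAAG. A match is a run of letters and not a measured binding site.

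Ltb (Entrez 16994, chr17:35194507-35196305, plus strand) anchors lymphotoxin to the cell surface, where B cells use it to signal to stromal cells of lymphoid tissue. It had 338 and 527 CPM in Blimp1KO libraries 1 and 2, against 27.2 and 30.8 CPM in WT of batch 1. It had 5.97 and 8.73 CPM in Xbp1KO, against 11.8 and 17.1 CPM in WT of batch 2. Both Blimp1KO libraries stood above all others, the lower of them at 11.0 times the highest other library, and both Xbp1KO libraries stood below both WT libraries of batch 2. The log2 fold change was 3.90 ± 0.34 (SE) in Blimp1KO, a 14.9-fold difference, and -0.98 ± 0.31 in Xbp1KO. Because the cells were sequenced in bulk, a higher level per cell and a larger share of cells with a high level cannot be told apart for this or any other gene here.

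Pigr (Entrez 18703, chr1:130826684-130852249, plus strand) encodes the receptor with which mucosal epithelia carry IgA and IgM joined by the J chain to their outer surface. It had 45.5 and 19.4 CPM in Blimp1KO, against 3.27 and 3.02 CPM in WT of batch 1. It had 0.866 and 0.744 CPM in Xbp1KO, against 2.96 and 1.93 CPM in WT of batch 2. The groups of each pair did not overlap, and the lower Blimp1KO library was at 5.93 times the highest other library. The log2 fold change was 3.37 ± 0.43 in Blimp1KO and -1.60 ± 0.41 in Xbp1KO. Its lowest library, Xbp1KO replicate 2, rested on 69 reads, with an exact 95% Poisson interval of 53.7 to 87.3 that covers counting error only.

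Rdh12 (Entrez 77974, chr12:79208913-79222664, plus strand) encodes a retinol dehydrogenase best known from photoreceptors, where it reduces retinal. It had 45.1 and 53.4 CPM in Blimp1KO, against 3.97 and 3.49 CPM in WT of batch 1. It had 2.77 and 2.28 CPM in Xbp1KO, against 3.40 and 2.48 CPM in WT of batch 2. The Blimp1KO libraries were close to each other and the lower was at 11.4 times the highest other library, the widest such gap of the 6 genes. Xbp1KO and its WT libraries overlapped. The log2 fold change was 3.72 ± 0.23 in Blimp1KO, with an SE close to that of Napsa and below those of the other 4 genes, and -0.22 ± 0.21 in Xbp1KO.

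Napsa (Entrez 16541, chr7:44572445-44586846, plus strand) encodes napsin A, a pepsin-like protease that alveolar cells of the lung use to process surfactant proteins. It had 528 and 693 CPM in Blimp1KO, against 142 and 124 CPM in WT of batch 1. It had 25.1 and 23.5 CPM in Xbp1KO, against 93.7 and 75.9 CPM in WT of batch 2. The groups of each pair were apart, and the lower Blimp1KO library was at 3.73 times the highest other library. Its log2 fold change of 2.20 ± 0.22 in Blimp1KO was the smallest of the 6, and its -1.80 ± 0.22 in Xbp1KO was the most negative.

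Map3k15 (Entrez 270672, chrX:159988204-160123346, plus strand) encodes ASK3, a kinase at the head of stress-activated MAP kinase cascades. It had 49.1 and 26.0 CPM in Blimp1KO, against 3.13 and 4.14 CPM in WT of batch 1. It had 10.6 and 9.95 CPM in Xbp1KO, against 15.7 and 5.64 CPM in WT of batch 2. The Blimp1KO libraries were again the highest, but WT replicate 3 came within a factor of 1.66 of the lower one, and the batch 2 WT libraries differed from each other by a factor of 2.79. The log2 fold change was 3.37 ± 0.53 in Blimp1KO against WT of batch 1, and 2.38 against the WT libraries of both batches pooled. In Xbp1KO it was -0.06 ± 0.48, with 0.86 when WT replicate 3 was left out and -0.62 when WT replicate 4 was left out. At its 3′ end the annotation overlaps Pdha1 on the other strand by 1128 bases, and the strand setting of the counting is not given in the sources used here. Pdha1, a subunit of pyruvate dehydrogenase, had a log2 fold change of -0.06 ± 0.14 in Blimp1KO.

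Plac8 (Entrez 231507, chr5:100551589-100572253, minus strand) encodes a small protein found in many cells of the blood lineages as well as in placenta. It had 356 and 698 CPM in Blimp1KO, against 38.3 and 47.5 CPM in WT of batch 1. It had 31.9 and 41.6 CPM in Xbp1KO, against 37.5 and 28.3 CPM in WT of batch 2. The lower Blimp1KO library was at 7.49 times the highest other library, and the 6 remaining libraries lay close together, with Xbp1KO and its WT overlapping. The log2 fold change was 3.62 ± 0.38 in Blimp1KO and 0.16 ± 0.34 in Xbp1KO.

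**Figure D1:**
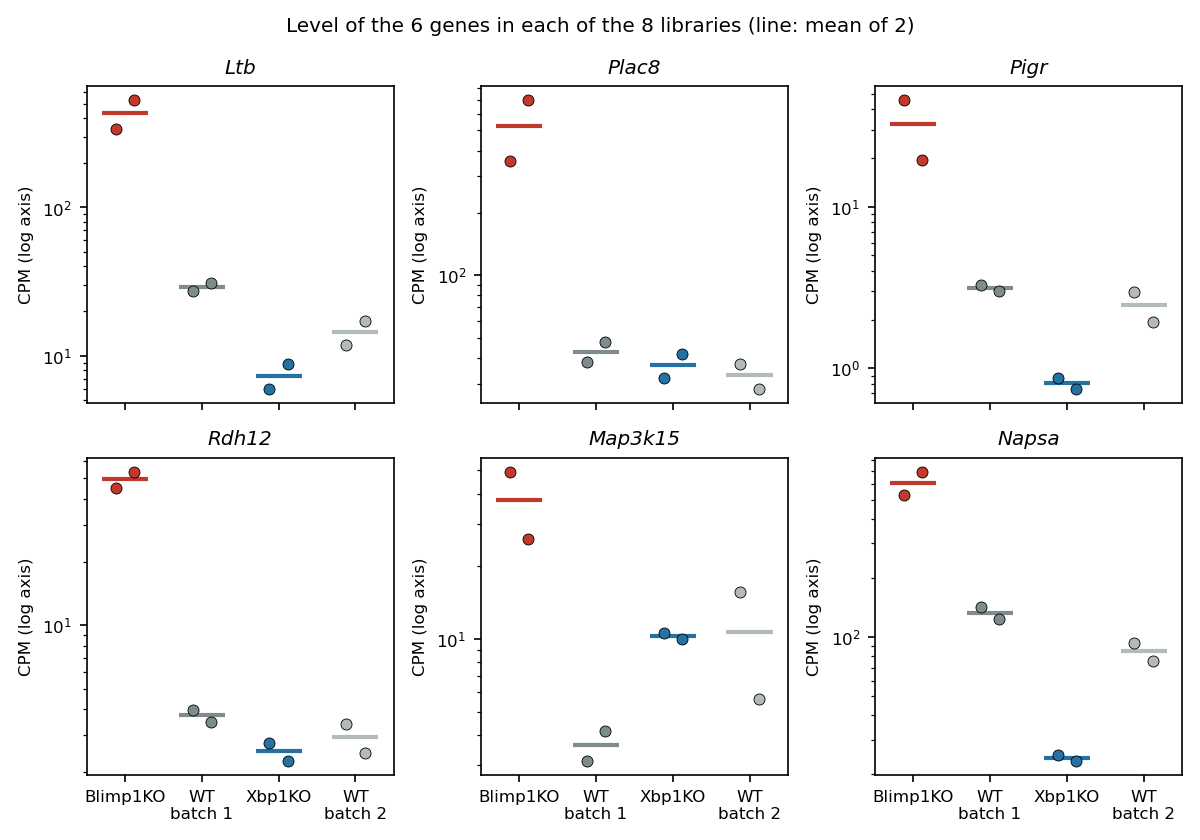
Level of each of the 6 genes in CPM on a log axis, with 1 point per library and a line at the mean of the 2 libraries of a group. In every panel both Blimp1KO points lie above the other 6; the smallest gap is that of Map3k15, where the lower Blimp1KO point is at 26.0 CPM and WT replicate 3 at 15.7 CPM.

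Both Blimp1KO libraries were above all 6 other libraries for 6 of the 6 genes, a pattern that 9.91% of all genes tested also show. Both were above both WT libraries of batch 1 for 20.9% of all genes tested, and the log2 fold change was at least 2, as it was for all 6, in 2.59%. Since the 6 were picked on these libraries, nothing is read from these counts. Among the 7477 genes whose average log2 CPM was 3 or more, Ltb, Rdh12, Plac8, Map3k15 and Pigr held ranks 4, 5, 6, 8 and 9 from the highest log2 fold change in Blimp1KO, and Napsa rank 34. Libraries of the Blimp1KO group did not order the genes alike. Replicate 1 was the higher for Pigr and Map3k15, or 2 of 6 against 50% of all genes tested, and replicate 2 for Ltb, Plac8, Rdh12 and Napsa. With 1 Blimp1KO library left out, the log2 fold change of Pigr was 2.67 without replicate 1 and 3.86 without replicate 2, and that of Plac8 was 4.07 without replicate 1 and 3.06 without replicate 2.

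The genes fell into a high and a low set by level per kilobase of gene length (RPKM, from the counts and the gene lengths in the table). In Blimp1KO, Plac8 averaged 757 ± 347 RPKM (SD, n = 2), Napsa 413 ± 79.0 and Ltb 395 ± 122. Plac8 was above Napsa in both libraries by a margin within its own SD, and Napsa and Ltb overlapped. Rdh12 averaged 29.4 ± 3.51 RPKM, Map3k15 8.65 ± 3.76 and Pigr 8.42 ± 4.80, with Map3k15 and Pigr overlapping. The order in WT of batch 1 was Napsa at 89.8 ± 8.47 RPKM, Plac8 at 61.6 ± 9.39, Ltb at 26.5 ± 2.32, Rdh12 at 2.23 ± 0.204, Map3k15 at 0.836 ± 0.164 and Pigr at 0.817 ± 0.0444. Plac8 thus lay at the 98.8th percentile of RPKM among tested genes in Blimp1KO and at the 95.2nd in WT of batch 1, while Pigr lay at the 73.5th in Blimp1KO and the 32.6th in WT of batch 1. In WT of batch 2 Map3k15 averaged 2.45 ± 1.64 RPKM, above Rdh12 at 1.76 ± 0.388 RPKM by less than its own SD.

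The knockouts did not mirror each other in these genes. Both Xbp1KO libraries were below both WT libraries of batch 2 for Ltb, Pigr and Napsa, a pattern that 25.8% of all genes tested show, and overlapped with them for Plac8, Rdh12 and Map3k15. The rule of choice used this comparison too, so these counts are also a description. The deposited log2 FPKM values, which are counts scaled by gene length and library size by the authors, gave Blimp1KO minus WT differences of 3.57 for Ltb, 3.31 for Pigr, 3.74 for Rdh12, 1.88 for Napsa, 3.37 for Map3k15 and 3.20 for Plac8. They come from the same libraries as the counts.

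The 1 comparison the choice did not rest on directly was that between the WT groups, although it uses libraries that served in both knockout comparisons. Ltb was lower in WT of batch 2 than in WT of batch 1, with a log2 fold change of -1.01 ± 0.31 (edgeR's quasi-likelihood test, adjusted p = 0.114). Map3k15 was at 1.56 ± 0.50 (adjusted p = 0.122), which became 0.63 without WT replicate 3, and Napsa at -0.65 ± 0.22 (adjusted p = 0.127). Plac8 was at -0.38 ± 0.34 (adjusted p = 0.495), Pigr at -0.36 ± 0.40 (adjusted p = 0.589) and Rdh12 at -0.34 ± 0.21 (adjusted p = 0.324). None of the 6 passed at an adjusted p of 0.05 by edgeR, against 2.81% of all genes tested (1.96% higher and 0.843% lower). Limma-voom also called 0 of the 6, and 204 of all 15073 genes tested. Ltb, Map3k15 and Napsa had an unadjusted p below 0.05 by edgeR, as had 4087 of the 15073. DESeq2 called those 3 (adjusted p = 0.0217, 0.0129 and 0.0445), and 1960 of the 15073. The libraries of the WT groups did not overlap for any of the 6, but that held for 67.7% of all genes tested. Batch and the mice or libraries behind these WT groups cannot be told apart.

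**Figure D2:**
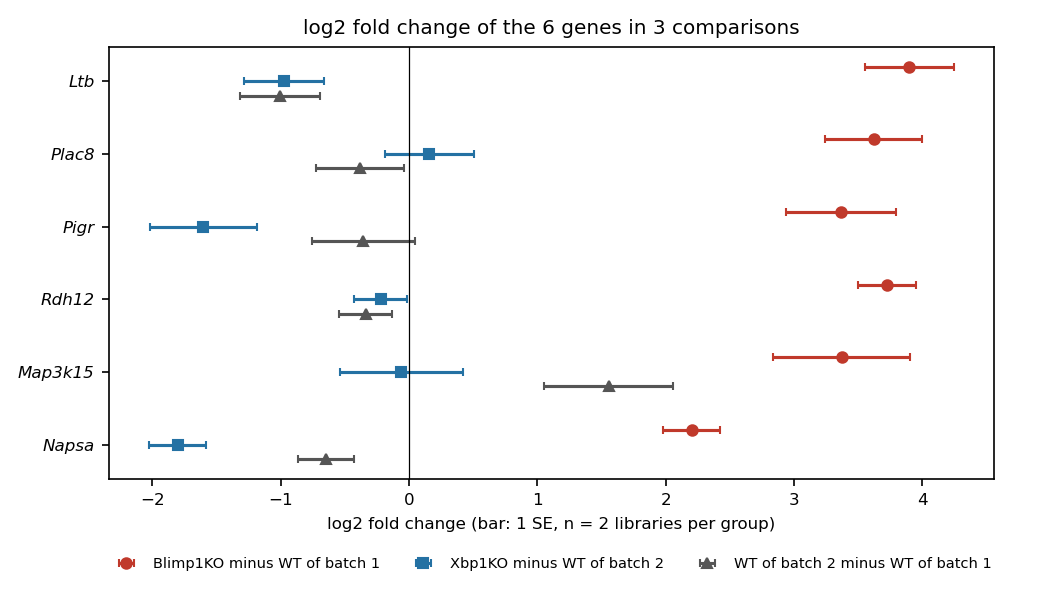
Log2 fold change of the 6 genes in Blimp1KO against WT of batch 1 (circles), in Xbp1KO against WT of batch 2 (squares) and in WT of batch 2 against WT of batch 1 (triangles), each with a bar of 1 SE and 2 libraries per group. All Blimp1KO values lie between 2.20 and 3.90; in Xbp1KO they run from -1.80 for Napsa to 0.16 for Plac8, and Map3k15 is the 1 gene above 0 between the WT groups.

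Across the 8 libraries, log2 CPM of Ltb, Plac8, Pigr, Rdh12 and Napsa were correlated with r from 0.848 to 0.983 between pairs, and Map3k15 with the other 5 at r from 0.487 to 0.759. These values mostly restate that the same 2 libraries are high for each gene. Among 9450 other tested genes, those most like the mean standardised profile of the 6 were the cap methyltransferase gene Cmtr1 (r = 0.990), the leukocyte cytoskeletal gene Lsp1 (0.987), the glycosyltransferase gene B3gnt2 (0.981), the nuclease gene Dnase1l3 (0.978) and the IgM receptor gene Fcmr (0.975). Their sizes differed widely. Dnase1l3 had 69.7 and 83.4 CPM in Blimp1KO, against 10.8 and 11.6 CPM in WT of batch 1, whereas Cmtr1 had 54.2 and 52.3 CPM in Blimp1KO, against 39.5 and 40.1 CPM in WT of batch 1. The single closest gene was Fcmr for Ltb (r = 0.989), Lsp1 for Plac8 (0.989) and for Rdh12 (0.997), Pacs1 for Pigr (0.987), Trmt2b for Napsa (0.996) and Wdr82 for Map3k15 (0.973). All r are over the 8 libraries of 4 groups and describe the pattern only.

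Genes that share a pathway or family with the 6 were set beside them, and most did not pass the test in Blimp1KO. Of 86 tested genes in 6 lists, 2 rose and 0 fell, which is 2 calls against the 0.577% of all genes tested that were called higher, and 0.285% that were called lower. Both were in the lists of Ltb and Pigr. The median log2 fold change over the 86 was -0.00 and that over all genes tested was -0.01. DESeq2 called 13 of the 86, all higher, and limma-voom 2. Of all 15073 genes tested, DESeq2 called 473 higher and 389 lower, and limma-voom 58 higher and 25 lower. An unadjusted p below 0.05 by edgeR was held by 2093 of the 15073, in either direction. Those counts also stand beside the calls in each list below.

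Around Ltb, 1 of 9 tested lymphotoxin and TNF ligands and receptors rose by edgeR, and the list had 6 higher estimates and a median of 1.28. At an unadjusted p below 0.05, 2 were higher and 0 lower, and DESeq2 and limma-voom each called 1 higher. Btla, an inhibitory receptor whose ligand HVEM also binds lymphotoxin alpha, had 276 and 242 CPM in Blimp1KO, against 102 and 66.9 CPM in WT of batch 1. Its log2 fold change was 1.62 ± 0.24 (edgeR, adjusted p = 0.0382), and both Blimp1KO libraries were above both WT libraries. Lta, whose product forms the cell-surface lymphotoxin trimer with that of Ltb, had 0.355 and 0.845 CPM in Blimp1KO, against 0.0227 and 0.0420 CPM in WT of batch 1. That was 4.15 ± 1.10 on the log2 scale and did not pass (adjusted p = 0.174). In the alternative NF-kB pathway, through which the lymphotoxin receptor signals, 0 of 8 passed by edgeR, with 3 higher and 1 lower at an unadjusted p below 0.05, 1 called by DESeq2 and 0 by limma-voom. Birc3 was at 0.62 ± 0.17 (adjusted p = 0.161) and Relb at 0.48 ± 0.18 (adjusted p = 0.289).

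Around Pigr, 1 of 15 tested Fc receptors and Fc receptor-like proteins rose by edgeR, with 9 higher estimates and a median of 0.14. At an unadjusted p below 0.05, 5 were higher and 0 lower. DESeq2 called 4 higher, Fcer2a, Fcmr, Fcrl1 and Fcrl5, and limma-voom called 1. Fcmr, the receptor for the Fc part of IgM, had 393 and 581 CPM in Blimp1KO, against 76.0 and 48.7 CPM in WT of batch 1. It had 22.4 and 23.6 CPM in Xbp1KO, against 41.7 and 44.2 CPM in WT of batch 2. The groups of each pair were apart. The log2 fold change was 2.97 ± 0.30 in Blimp1KO (edgeR, adjusted p = 0.0259) and -0.90 ± 0.28 in Xbp1KO (adjusted p = 0.102).

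The remaining lists gave no call by edgeR in Blimp1KO. Of 19 tested genes of retinoid metabolism, 0 passed, with 2 lower and 0 higher at an unadjusted p below 0.05 and 0 called by DESeq2 or limma-voom, and the median was -0.17. Retsat, which saturates retinol, was at -0.69 ± 0.22 (adjusted p = 0.230) and Aldh1a2, which makes retinoic acid, at -1.01 ± 0.36 (adjusted p = 0.273). Rdh11, the neighbour and close relative of Rdh12, was at 0.26 ± 0.18 (adjusted p = 0.627). Of 16 kinases and targets of the stress MAP kinase cascade, 0 passed, with 2 higher and 1 lower at an unadjusted p below 0.05, 2 called by DESeq2 and 0 by limma-voom. The p38 kinase genes Mapk12 and Mapk11 were at 1.39 ± 0.31 (adjusted p = 0.108) and 0.87 ± 0.21 (adjusted p = 0.130). Of 19 aspartic and endolysosomal proteases and their partners, 0 passed, with 5 higher at an unadjusted p below 0.05, 5 called by DESeq2 and 0 by limma-voom. The cathepsin genes Ctsh and Ctso were at 1.68 ± 0.29 (adjusted p = 0.0572) and 0.98 ± 0.20 (adjusted p = 0.0806). The other PLAC8 domain genes listed, 2 in number, had too few counts to be tested.

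**Figure D3:**
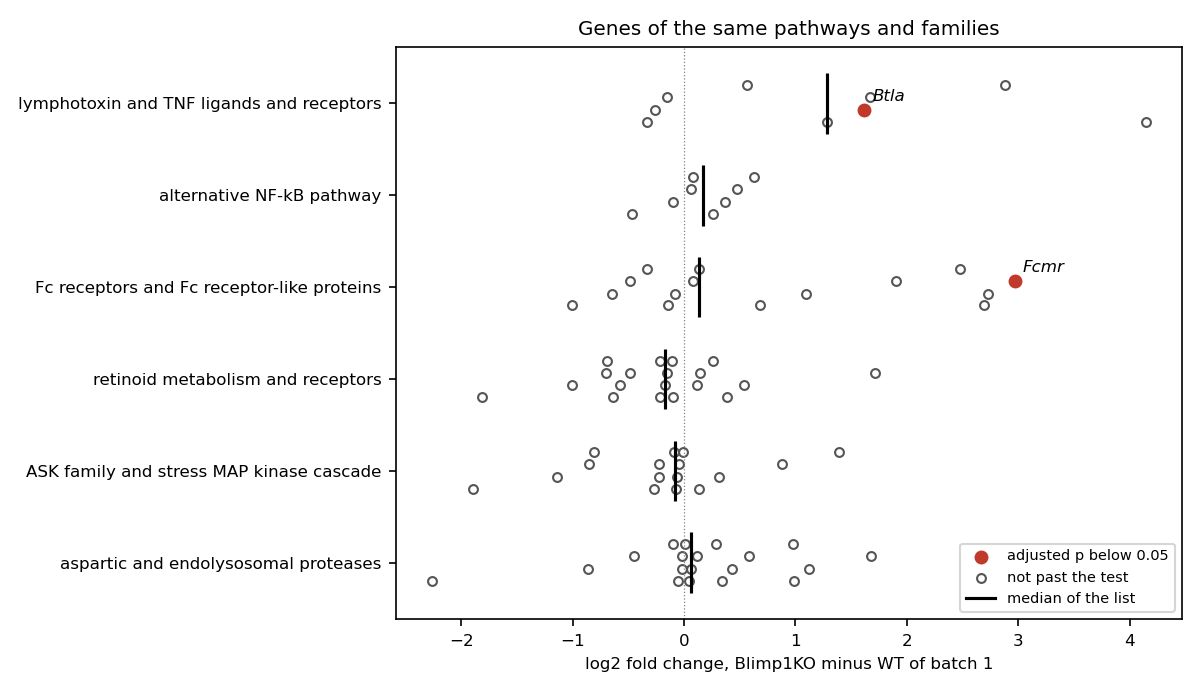
Log2 fold change in Blimp1KO against WT of batch 1 for each tested gene of 6 pathway and family lists, with the 6 chosen genes left out. Filled points passed edgeR's test at an adjusted p of 0.05, open points did not, and a vertical line marks the median of a list; Btla at 1.62 and Fcmr at 2.97 are the filled points.

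On the chromosome, most neighbours of the 6 genes did not pass the test in Blimp1KO. Of the 36 nearest tested protein-coding genes, 3 on each side, 2 rose and 0 fell in Blimp1KO by edgeR, against 0.577% of all genes tested called higher, and 19 of the 36 estimates were higher. At an unadjusted p below 0.05, 7 were higher and 0 lower, against 2093 of all 15073 genes tested in either direction. DESeq2 called 3 higher, Coq2, Fcmr and Spib, against 473 higher and 389 lower of the 15073. Limma-voom called 2 higher, against 58 higher and 25 lower. One of the 2 called by edgeR is Fcmr, 13527 bases from Pigr. On the other side of Pigr, 780 bases away, Fcamr, which encodes a receptor for IgA and IgM, was at 2.70 ± 0.93 (adjusted p = 0.265), with less than 1 CPM in every library. The other is Spib, a transcription factor of B cells, 40357 bases from Napsa. Spib had 157 and 197 CPM in Blimp1KO, against 5.78 and 7.22 CPM in WT of batch 1, and a log2 fold change of 4.77 ± 0.62 (adjusted p = 0.0326). The tested genes between Spib and Napsa did not pass, Nr1h2 with -0.13 ± 0.15 and Pold1 with 0.69 ± 0.28.

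The nearest tested genes of the other loci had smaller or less certain estimates. Beside Ltb, Lst1 was at 0.69 ± 1.80 and Tnf at 2.88 ± 1.91 (adjusted p = 0.599), both at low counts. Beside Plac8, Cops4 was at -0.01 ± 0.21 and Coq2 at 1.03 ± 0.21 (edgeR, adjusted p = 0.0882). Beside Rdh12, Rdh11 was at 0.26 ± 0.18 and Zfyve26 at -0.22 ± 0.31. Beside Map3k15, Sh3kbp1 was at 0.30 ± 0.16 and Pdha1 at -0.06 ± 0.14. In Xbp1KO, 0 of the 36 passed by edgeR, against 7.7% of all genes tested (2.63% higher and 5.06% lower). At an unadjusted p below 0.05, 3 were higher and 4 lower, against 3552 of all 15073 genes tested in either direction. DESeq2 called 1 higher and 2 lower, against 903 higher and 1317 lower of the 15073. Limma-voom called 0, against 565 higher and 908 lower.

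**Figure D4:**
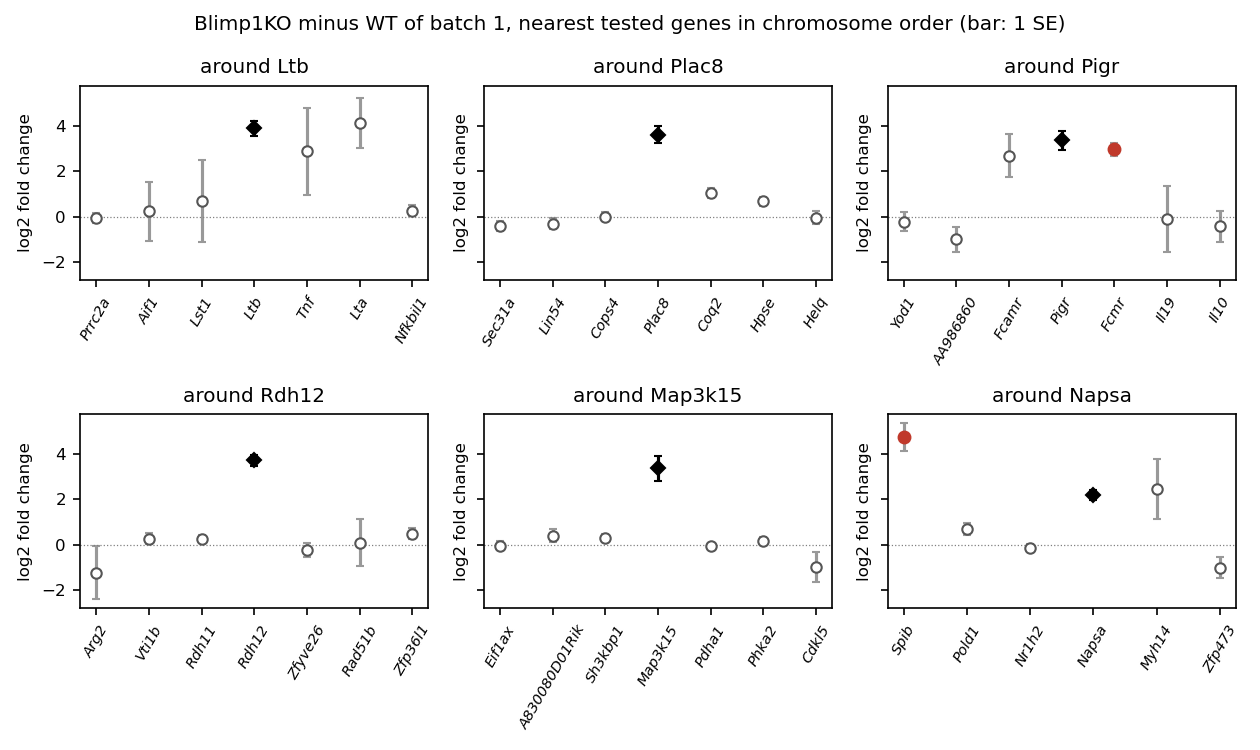
Log2 fold change in Blimp1KO against WT of batch 1 of each of the 6 genes (diamonds) and of up to 3 of the nearest tested genes on each side in chromosome order (circles, filled where the adjusted p was below 0.05), with bars of 1 SE; spacing is not to scale. Fcmr beside Pigr and Spib near Napsa are the filled circles, and the genes flanking Rdh12 and Map3k15 lie near 0.

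The calls of Btla, Fcmr and Spib depended on the libraries in the fit. Without WT replicate 1 their adjusted p were 0.231, 0.216 and 0.283, and without WT replicate 2 they were 0.264, 0.162 and 0.224. Without WT replicate 3 they were 0.109, 0.0613 and 0.0720, and without WT replicate 4 they were 0.101, 0.0559 and 0.0658. In the fit of batch 1 alone Spib passed (adjusted p = 0.0345) and Btla (0.124) and Fcmr (0.0841) did not, and Btla was at 0.0507 without Xbp1KO replicate 1. The log2 fold changes stayed between 1.35 and 1.96 for Btla, 2.66 and 3.33 for Fcmr, and 4.59 and 4.97 for Spib over 16 alternatives.

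Markers of other cell types were measured in the same libraries. Markers of mature B cells, 12 in number, summed to 629 to 680 CPM in Blimp1KO, against 189 to 216 CPM in WT of batch 1. They summed to 227 to 252 CPM in Xbp1KO and 201 to 232 CPM in WT of batch 2. In Blimp1KO 11 of the 12 estimates were higher, with a median of 1.22, and 1 passed by edgeR and by limma-voom, Spib. At an unadjusted p below 0.05, 6 were higher and 1 lower, and DESeq2 called 6 higher: Bank1, Cd22, Cxcr5, Fcer2a, Ms4a1 and Spib. None was at 0, and Ms4a1, which encodes CD20, was the most abundant, at a mean of 263 CPM in Blimp1KO, against 97.1 CPM in WT of batch 1. Markers of plasmacytoid dendritic cells, 10 in number, summed to 1025 to 1530 CPM in Blimp1KO, against 642 to 737 CPM in WT of batch 1, and to 1249 to 1321 CPM in Xbp1KO and 483 to 491 CPM in WT of batch 2. Of these 10, 7 estimates were higher in Blimp1KO and 0 passed by edgeR, with 3 at an unadjusted p below 0.05, 2 called by DESeq2 and 0 by limma-voom. Most of the dendritic cell sum came from Ly6d, at 758 and 1313 CPM in Blimp1KO, against 433 and 521 CPM in WT of batch 1. Without Ly6d the sums were 268 and 217 CPM in Blimp1KO, against 209 and 216 CPM in WT of batch 1, and close to each other in replicate 2 of both groups. The mature B cell sum was thus higher in the libraries in which the 6 genes were high, also without Ms4a1, at 343 and 440 CPM in Blimp1KO, against 108 and 103 CPM in WT of batch 1. A large part of these remaining sums in Blimp1KO was Spib alone, the called neighbour of Napsa. It had 157 and 197 CPM there, against 5.78 and 7.22 CPM in WT of batch 1. The part of either list in the levels of the 6 genes was not tested. The mature B cell list holds genes of the B cell stage. In these bulk libraries, B cells in the sort and plasma cells that express such genes cannot be told apart.

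Pigr and Napsa are best known from epithelia. Epithelial markers, 12 in number, summed to 60.3 to 85.9 CPM in Blimp1KO, against 65.8 to 85.2 CPM in WT of batch 1, with overlapping ranges and most of the sum from Epcam. Of them Krt19, Sftpb, Sftpc and Cdh16 were at 0 in both Blimp1KO libraries, Sftpb and Sftpc being the surfactant genes of the alveolar cells that express Napsa. The same genes, and Krt8, were at 0 in both WT libraries of batch 1, so these zeros do not set Blimp1KO apart. In Xbp1KO the 12 epithelial markers summed to 256 to 290 CPM, against 86.1 to 92.4 CPM in WT of batch 2, again mostly from Epcam. Without Epcam the sums were 0.556 and 74.9 CPM in Xbp1KO replicates 1 and 2. They were 0.700 and 31.4 CPM in WT replicates 3 and 4. Xbp1KO replicate 2 and WT replicate 4 also had the larger neutrophil and monocyte sums of their groups, given below. Of the 12 epithelial markers, 3 had enough counts to be tested. The part of epithelial cells in the levels of Pigr and Napsa was not tested. Markers of T, NK and innate lymphoid cells summed to 20.8 to 49.3 CPM in Blimp1KO, against 16.1 to 21.5 CPM in WT of batch 1, with Cd2 the most abundant. Those of neutrophils and monocytes, led by Lyz2, summed to 290 to 527 CPM in Blimp1KO, against 314 to 408 CPM in WT of batch 1. In batch 2 they set single libraries apart, with 44.0 and 1299 CPM in Xbp1KO replicates 1 and 2, against 13.1 and 544 CPM in WT replicates 3 and 4. Of the 12 estimates 11 were higher in Xbp1KO, with a median of 1.36. Without Xbp1KO replicate 2 the log2 fold change in Xbp1KO was -1.24 for Ltb, -1.48 for Pigr and -1.73 for Napsa, and without WT replicate 4 it was -0.69, -1.88 and -1.95. Plasma cell markers summed to 58861 to 72509 CPM in Blimp1KO, against 110634 to 119030 CPM in WT of batch 1, mostly from the J chain gene Jchain, and all 10 were above 0 in every group. Without Jchain the sums were 4085 and 5111 CPM in Blimp1KO, against 6807 and 6769 CPM in WT of batch 1. Only 1 of the 10 estimates was higher in Blimp1KO, with a median of -0.45. Of the 10 plasma cell markers 0 passed in Blimp1KO by edgeR, with 1 higher and 1 lower at an unadjusted p below 0.05, 2 called lower by DESeq2 and 0 by limma-voom.

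**Figure D5:**
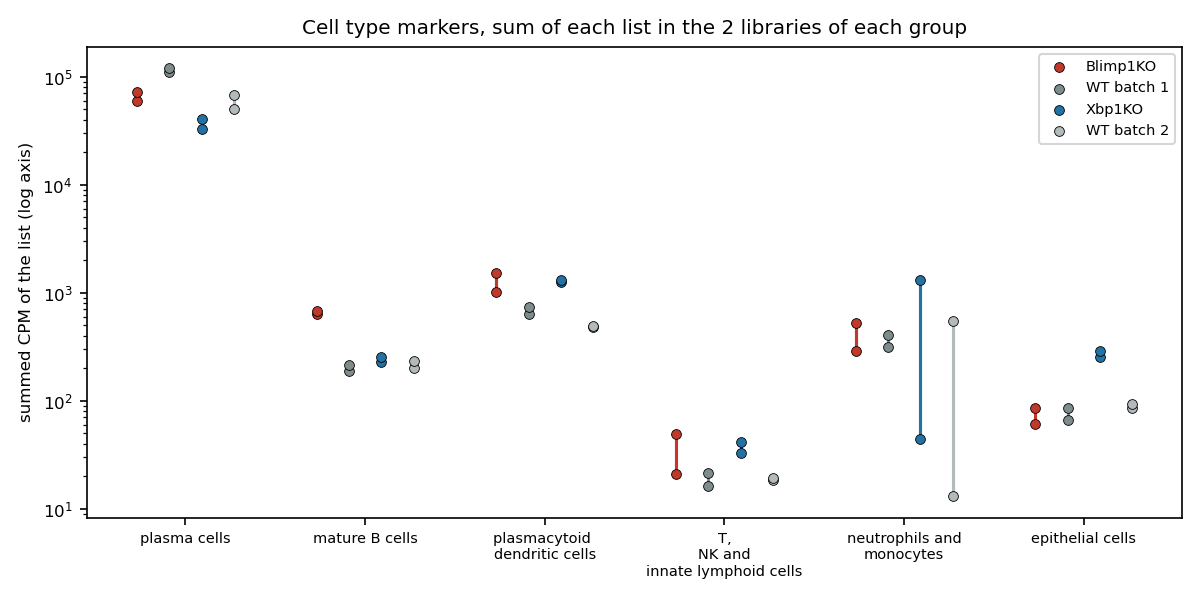
Summed CPM of 6 lists of cell type markers on a log axis, with 1 point for each of the 2 libraries of a group joined by a line. The mature B cell sum is 629 to 680 CPM in Blimp1KO and at most 252 CPM in any other library, and the plasma cell sum is the largest in every library.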

How the data were processed

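Plasma cell RNA of 8 libraries was analysed from the deposited table of raw read counts per Entrez gene, whole numbers without normalization per the file headers, which also lists gene length. Per-sample files deposited beside it hold log2 FPKM, with the same mean in every library; how the authors aligned them is not given in the sources used here. Subread, featureCounts, limma and the builds GRCm38 and mm10 are named per the submitters' processing notes, without versions or roles. Counting strand is not given.

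Symbols came from the per-sample files for 13860 genes and from RefSeq (GRCm38.p6), with its coordinates, for 11720; 1599 had none and made up 0.0570% to 0.240% of counts. In R 4.3.3, genes were filtered with filterByExpr of edgeR 4.0.16 at a minimum count of 10, leaving 15073, and scaled by TMM. A quasi-likelihood model with 4 group means was fitted to all libraries, with 4 residual and 3.06 prior degrees of freedom. P-values were adjusted by Benjamini-Hochberg over all tested genes, and calls were made at 0.05. An SE is the absolute log2 fold change divided by the square root of F. DESeq2 1.42.0, limma 3.58.1 (voom), other scalings, no filter, left-out libraries, single batches, pooled WT and a replicate block were alternatives.

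The 6 genes, the 7 pathway lists and the 6 marker lists were chosen with earlier results of these data known. Named genes are the 6; the called genes of each pathway list, or the 2 with the smallest p; called and nearest neighbours; the nearest paralog; the 5 genes most like the mean profile and the 1 most like each gene; and the leading and absent markers. Coq2, Lta, Pold1 and the surfactant markers were named after their values were seen. Some genes that meet these rules, among them the least abundant markers, are not reported here.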

Additional observations from a re-analysis of the deposited data

How the results depend on the processing

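Over 17 alternatives the log2 fold changes in Blimp1KO were 3.55 to 4.32 for Ltb, 3.06 to 4.07 for Plac8, 2.67 to 3.86 for Pigr, 3.60 to 3.89 for Rdh12, 2.38 to 3.76 for Map3k15 and 1.88 to 2.49 for Napsa. In Xbp1KO, Plac8 (-0.04 to 0.37), Rdh12 (-0.45 to 0.02) and Map3k15 (-0.62 to 0.86) spanned 0. The counts of called genes were far less stable, and the cause was not tested. In Blimp1KO, 130 genes became 517 without the filter, 862 by DESeq2, 83 by limma-voom, 20 in batch 1 alone and 269 with WT pooled. With 1 library left out they ranged from 0 (without WT replicate 1 or 2, where 1160 and 1064 had an unadjusted p under 0.05), 3 (without WT replicate 3 or 4) and 230 (without Blimp1KO replicate 2) to 688 (without Blimp1KO replicate 1). The 1160 genes called in Xbp1KO became 2220 by DESeq2 and 225 to 2123 with 1 library left out. The 423 called between the WT groups became 1662 without the filter, 1960 by DESeq2, 204 by limma-voom and 14 to 2963 with 1 library left out. The 2 called genes of the pathway lists became 11 without the filter, 13 by DESeq2, 1 in batch 1 alone, 4 with WT pooled and 0 to 5 with 1 library left out. The 2 called neighbours became 1 in batch 1 alone and 0 to 3 with 1 library left out. A lone library was assumed to vary like the other groups.

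Between the WT groups, Ltb passed without the filter (adjusted p = 0.0303), without Blimp1KO replicate 1 (0.0401) and without replicate 2 (0.0378), Map3k15 without the filter (0.00487), and Napsa without Blimp1KO replicate 2 (0.0405). There the median of all genes was -0.02, and was 0.13 under scaling by counts outside immunoglobulin genes and 0.19 without the filter. Replicate numbers 1 and 2 are shared by Blimp1KO and WT of batch 1, but the labels give them no meaning. The deviations of same-numbered libraries correlated at 0.218, which over 2 pairs neither shows nor denies a pairing, so the libraries were not treated as pairs. With a replicate block in batch 1 alone, 475 genes, 11 pathway genes and 4 neighbours were called. Depth limits the comparison of Pigr in Xbp1KO and of Lta, Tnf and Fcamr in every group, which rest on few reads.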

Other observations

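The pathway lists were also measured in Xbp1KO against WT of batch 2, where 3 of 86 tested genes rose and 7 fell by edgeR's quasi-likelihood test, beside 2.63% called higher and 5.06% called lower among all genes tested. The endolysosomal genes Ctsz, Ctsa and Ifi30 rose, Ctsz by 1.53 ± 0.23 on the log2 scale (SE, n = 2 libraries per group, adjusted p = 0.0131), Ctsa by 1.00 ± 0.19 (adjusted p = 0.0262) and Ifi30, a thiol reductase of antigen processing, by 1.03 ± 0.24 (adjusted p = 0.0483). In the same list the cathepsin gene Ctsh was at -1.49 ± 0.29 (adjusted p = 0.0291) and the cathepsin inhibitor gene Cst3 at -2.05 ± 0.26 (adjusted p = 0.00687).

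Of the retinoid genes 3 fell in Xbp1KO. Aldh1a2 had 0.219 and 0.226 CPM in Xbp1KO, against 4.61 and 6.37 CPM in WT of batch 2, a log2 fold change of -4.61 ± 0.41 (adjusted p = 0.00264). Retsat was at -2.20 ± 0.23 (adjusted p = 0.00386) and Rdh14 at -0.84 ± 0.17 (adjusted p = 0.0299). Among receptors, Fcrla, an intracellular Fc receptor-like protein of B cells, was at -3.34 ± 0.28 (adjusted p = 0.00241) and Btla at -2.12 ± 0.24 (adjusted p = 0.00521). Btla had 21.6 and 25.6 CPM in Xbp1KO and 105 and 99.2 CPM in WT of batch 2. Over 8 fits with 1 library left out, Aldh1a2, Retsat, Fcrla and Btla passed in all 8. Cst3 passed in 6 (not without Xbp1KO replicate 1 or WT replicate 3), and Ctsz in 4 (not without either Xbp1KO library or WT replicate 3 or 4). Ctsa, Ifi30 and Rdh14 passed in 2, the fits without a Blimp1KO library, and their adjusted p reached 0.166, 0.228 and 0.183. Ctsh passed in those fits and without Xbp1KO replicate 2, and its adjusted p reached 0.136. Ifi30 also missed the threshold under both other scalings (0.0519 and 0.0568). With WT of both batches pooled, the 3 genes that rose no longer passed, with 0.22 for Ifi30 (adjusted p = 0.801), 0.56 for Ctsa (0.291) and 1.04 for Ctsz (0.0956). Neutrophil and monocyte markers summed to 44.0 and 1299 CPM in the Xbp1KO libraries, against 13.1 and 544 CPM in WT of batch 2. Without Xbp1KO replicate 2, the library with the most, Ctsz was at 1.61 (0.0502), Ctsa at 1.11 (0.0792) and Ifi30 at 0.83 (0.188). The part of these markers in the calls was not tested.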
